A study of Mus musculus with 24 samples.

Results

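The prefrontal cortex (PFC) of mice under chronic jet lag (CJL) was compared between 2 times of day, ZT13, which is 1 h into the dark phase, and ZT1, which is 1 h after lights on (ZT0 is the time of lights on). The comparison used 6 of the 24 RNA-seq libraries of the series, 3 at ZT13 and 3 at ZT1. Of 48526 genes in each library, the 14339 with at least 1 FPKM (a level scaled for gene length and for the number of mapped fragments) in at least 3 of these 6 libraries were described. Every level below is in FPKM. Every difference is ZT13 minus ZT1 of the group means of log2(FPKM + 0.1), and this scale understates the change of genes near 0.

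All animals were 8-week-old male wild type C57BL/6J mice from a vendor, housed about 5 per cage under a cycle of 12 h light and 12 h dark for 2 weeks before treatment. For CJL mice, lights on and off were then moved 6 h earlier every 2 days, and tissue was taken on Day 10, after the last advance on Day 8. Control (Ctrl) mice stayed on the unshifted cycle and were harvested at the same 2 times. The nucleus accumbens (NAc) was dissected from the same animals, and the Ctrl mice and the NAc serve here only to show where the PFC of CJL mice differed. Each group held 3 mice, different mice at ZT13 and ZT1, so a difference between times is a difference between animals. The tissue was dissected by hand and sequenced in bulk, so fewer cells of a type and less RNA per cell cannot be told apart.

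The mammalian clock is a feedback loop in which BMAL1 (encoded by Arntl) with CLOCK or NPAS2 activates genes through E-boxes. Among these genes are Per and Cry, whose proteins repress the same activators, and the nuclear receptor genes Nr1d1 and Nr1d2, whose proteins repress Arntl. In the cortex of nocturnal rodents, immediate early genes such as Arc, Fos and Egr1 are switched on by neuronal activity and are known to be higher in waking than in sleep.

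The promoters of 4 clock genes are shown because they carry the elements named for the loop and because the RNA of each gene reached at least a nominal P below 0.05 (before adjustment) between ZT13 and ZT1. They come from RefSeq (GRCm38.p6), which held promoters of 19 of the 21 genes looked up, and each runs from 250 bases before the start of transcription to 50 bases after it. The elements, searched on both strands, were the E-box CACGTG (found in 7.15% of all 32851 mouse promoters of this length), the D-box TTATGTAA or TTACGTAA (1.06%), the ROR element TAGGTCA (2.61%), a non-canonical E-box AACGTG (4.68%) and the cAMP response element TGACGTCA (1.79%). Capitals mark the matches, which are a description of these letters and not of factor binding.
Ciart (chr3:95882179-95882478, minus strand): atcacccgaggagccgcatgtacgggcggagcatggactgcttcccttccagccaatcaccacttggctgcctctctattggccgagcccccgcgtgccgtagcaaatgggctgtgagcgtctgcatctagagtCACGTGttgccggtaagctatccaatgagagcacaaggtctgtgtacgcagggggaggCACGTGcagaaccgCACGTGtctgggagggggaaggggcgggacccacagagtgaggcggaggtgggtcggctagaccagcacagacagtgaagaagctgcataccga
Bhlhe41 (chr6:145865371-145865670, minus strand): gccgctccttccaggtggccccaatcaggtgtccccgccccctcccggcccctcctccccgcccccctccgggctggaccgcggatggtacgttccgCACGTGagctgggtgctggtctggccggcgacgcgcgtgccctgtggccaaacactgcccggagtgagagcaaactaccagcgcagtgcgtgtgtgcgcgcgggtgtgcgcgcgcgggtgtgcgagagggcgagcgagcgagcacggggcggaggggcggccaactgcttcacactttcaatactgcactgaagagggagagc
Per3 (chr4:151044616-151044915, minus strand): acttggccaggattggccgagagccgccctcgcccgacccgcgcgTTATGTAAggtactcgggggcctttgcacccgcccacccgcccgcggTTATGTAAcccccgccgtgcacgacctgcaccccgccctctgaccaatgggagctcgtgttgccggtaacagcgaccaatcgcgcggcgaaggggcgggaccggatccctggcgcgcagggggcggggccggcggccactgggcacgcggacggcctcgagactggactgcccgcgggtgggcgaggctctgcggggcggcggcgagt
Arntl, promoter 2 (chr7:113207261-113207560, plus strand): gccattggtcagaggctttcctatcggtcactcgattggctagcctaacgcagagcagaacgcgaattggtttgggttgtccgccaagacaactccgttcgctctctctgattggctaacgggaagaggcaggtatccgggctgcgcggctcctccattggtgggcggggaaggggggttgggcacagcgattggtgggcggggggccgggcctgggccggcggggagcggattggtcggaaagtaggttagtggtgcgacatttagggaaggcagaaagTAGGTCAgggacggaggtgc

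Ciart carried 3 E-boxes, at 116, 58 and 44 bases before the start, and Bhlhe41 carried 1 at 153 bases before it. Per1 and Cry1 also held an E-box, so that 4 of the 19 genes had one in at least 1 promoter, against 8.09% of 27025 genes. No promoter was available for Per2 and Bhlhe40. Per3 was the one gene of the 19 with a D-box, the element bound by DBP, TEF, HLF and NFIL3, and it held 2 copies at 205 and 158 bases before the start. The ROR element of Arntl, a site for the competing ROR activators and REV-ERB repressors, lay 30 bases after the start, and Nfil3 held the other such match. The non-canonical E-box stood in Cry1, Cry2 and Nr1d1, and the cAMP response element in Hlf. Krcc1, Sult1a1, Etnppl and Nbr1, which also differed between the times, held none of these letters in this window.

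Cortical and striatal markers set the PFC libraries apart from the NAc libraries. The mean log2 level of 16 cortical projection neuron markers was between 4.39 and 4.61 in the 6 PFC libraries of CJL mice, against 2.06 to 3.24 in the 6 NAc libraries of CJL mice, and that of 12 striatal markers was 3.40 to 4.27 in PFC, against 5.15 to 6.69 in NAc. FPKM steps of the lowest genes put the depth of these 6 libraries at an estimated 21.3 M to 23.8 M fragments. A library measured 14125 to 14367 genes at 1 FPKM or more. The NAc libraries of CJL mice differed in thalamus and hypothalamus markers. These summed to 518.5 FPKM in ZT13 replicate 3, 456.6 in ZT1 replicate 2 and 441.3 in ZT1 replicate 3. The other NAc libraries of CJL mice had 64.9 to 143.8 FPKM, and the PFC libraries of CJL mice had 16.5 to 21.4 FPKM.

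A library at each time stood apart. ZT1 replicate 2 had the highest level of 13 of 14 olfactory bulb markers, with a summed level of 190.4 FPKM, against 36.7 to 55.8 FPKM in the other 5 libraries. Its Doc2g, a marker of olfactory bulb projection neurons, was 41.7 FPKM. ZT13 replicate 1 had the highest level of all 12 choroid plexus markers, summing to 840.9 FPKM against 57.0 to 74.8 FPKM in the others, and its Ttr, the thyroid hormone carrier made by the choroid plexus, was 672 FPKM. Among the Ctrl mice ZT13 replicate 1 showed the same choroid plexus excess. Counts are given below also without these 3 libraries where they moved. Of the Ctrl libraries kept in those counts, ZT1 replicate 1 was 1.45 log2 units above the PFC median for olfactory bulb markers, under the cut of 1.5. ZT13 Ctrl replicate 2, also kept, had choroid plexus markers summing to 165.5 FPKM.

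**Figure D1:**
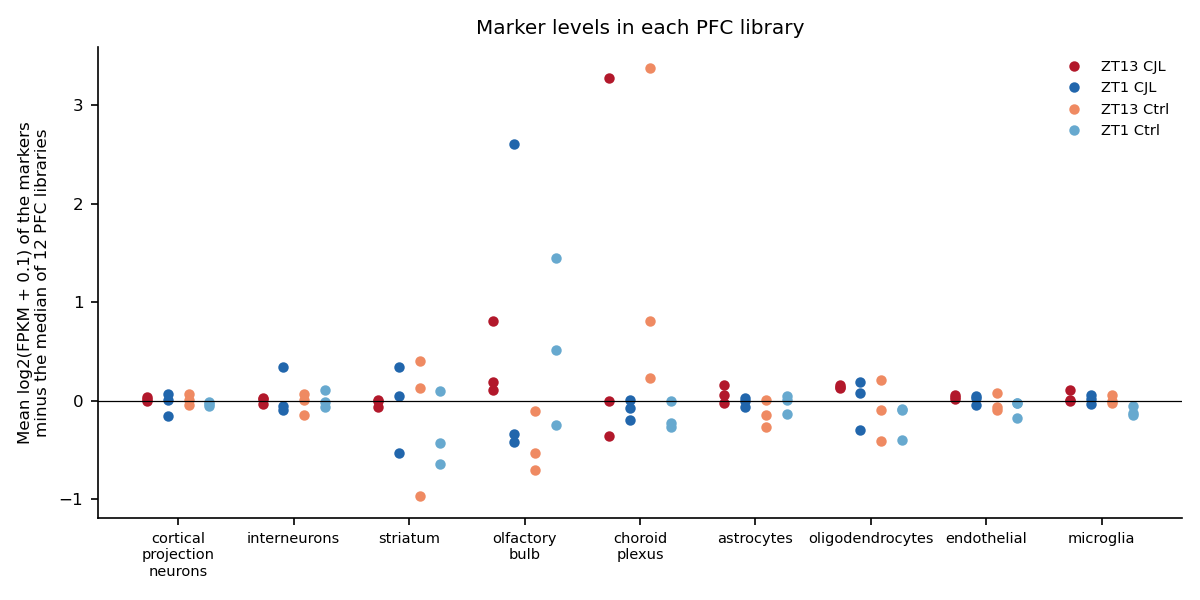
Mean log2(FPKM + 0.1) of the markers of 9 tissues and cell types in each PFC library, minus the median of the 12 PFC libraries (1 point per library, coloured by time and lighting, in log2 units). ZT1 CJL replicate 2 sits 2.60 above the median for olfactory bulb markers and ZT13 CJL replicate 1 sits 3.27 above it for choroid plexus markers, while the cortical projection neuron markers of the 6 CJL libraries stay between -0.15 and 0.065.

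Few genes differed between ZT13 and ZT1 in the PFC of CJL mice. With a limma fit over the 12 PFC libraries and Benjamini-Hochberg adjustment over all 14339 genes, 6 genes (0.0418%) rose and 1 gene (0.00697%) fell at ZT13 at an adjusted p below 0.05. At a nominal P below 0.05, 558 genes (3.89%) were higher and 430 (3.00%) lower. The levels of the ZT13 and ZT1 mice did not overlap for 929 higher (6.48%) and 1042 lower (7.27%) genes. The median difference was -0.0041, 85.8% of genes lay within 0.25 of 0, and 39 genes were higher and 17 lower by 1 or more on the log2 scale. Without the 3 libraries that stood apart, 2 genes were called higher and 7 lower.

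Of the 7 genes called, 3 encode repressors of the clock. Per2, a core repressor of the loop (ENSMUSG00000055866, chr1:91415982-91459324, mm10), had 15.99, 15.5 and 15.1 FPKM at ZT13, against 9.31, 6.95 and 8.53 FPKM at ZT1. The lowest ZT13 mouse was well above the highest ZT1 mouse, and the difference was 0.91 (SE 0.10, limma adjusted p 0.00539). Ciart, a repressor of the CLOCK and BMAL1 complex also called Chrono (ENSMUSG00000038550, chr3:95878503-95882251), had 14.7, 12.7 and 16.6 FPKM at ZT13, against 6.43, 6.21 and 7.42 FPKM at ZT1. Its difference of 1.12 (SE 0.13, limma adjusted p 0.00757) was the highest among the clock genes. Bhlhe41, the E-box repressor DEC2 (ENSMUSG00000030256, chr6:145858243-145865558), had 8.41, 7.93 and 8.04 FPKM at ZT13, against 5.70, 6.08 and 5.58 FPKM at ZT1, a difference of 0.48 (SE 0.071, limma adjusted p 0.0478). In the annotation 19.0% of its exonic bases overlap Gm43909 on the opposite strand, and reads of the 2 genes cannot be told apart without strand.

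The other 4 genes called lie outside the clock. Krcc1, a gene for a coiled-coil protein of little known function (ENSMUSG00000053012, chr6:71271677-71285319), averaged 7.39 ± 0.320 FPKM at ZT13 and 2.68 ± 0.196 FPKM at ZT1 (SD, n = 3 each). Its single values were 7.23, 7.19 and 7.76 FPKM at ZT13, against 2.65, 2.50 and 2.89 FPKM at ZT1, a difference of 1.43 (SE 0.088, limma adjusted p 3.50e-05), and it was the one of the 7 genes called under all 20 alternative settings. The Krcc1 levels of the 12 PFC mice took only a high or a low range, and the high range was seen at ZT13 in CJL mice and at ZT1 in Ctrl mice. In the annotation 6.53% of its exonic bases are shared with Mir8112 on the same strand, and how reads were assigned was not tested. Sult1a1, a cytosolic sulfotransferase for phenols (ENSMUSG00000030711, chr7:126672865-126676432), had 7.17, 6.22 and 6.42 FPKM at ZT13, against 3.89, 3.80 and 3.80 FPKM at ZT1. Its ZT1 mice were nearly equal, and it rose by 0.77 (SE 0.078, limma adjusted p 0.00378). Etnppl, an astrocyte enzyme that breaks down phosphoethanolamine (ENSMUSG00000019232, chr3:130617448-130637521), had 7.14, 7.85 and 6.52 FPKM at ZT13, against 4.10, 3.21 and 3.54 FPKM at ZT1. This was a difference of 0.97 (SE 0.12, limma adjusted p 0.00897), while the median over the 18 astrocyte markers, Etnppl included, was 0.026. Nbr1, a cargo receptor of selective autophagy (ENSMUSG00000017119, chr11:101552149-101581951), was the gene that fell, with 38.5, 38.2 and 37.3 FPKM at ZT13, against 55.2, 62.00 and 54.1 FPKM at ZT1 and a difference of -0.58 (SE 0.086, limma adjusted p 0.0478).

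**Figure D2:**
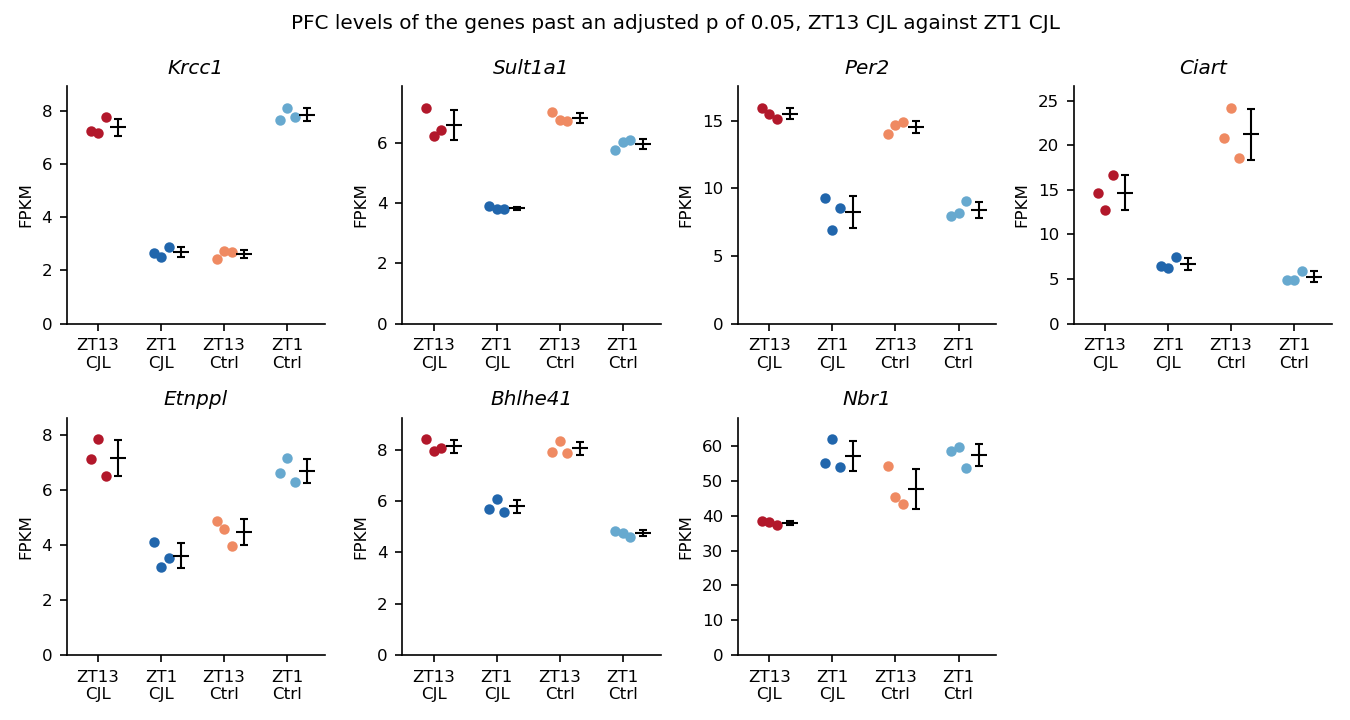
FPKM of the 7 genes called, 1 panel per gene, in each of the 3 mice of ZT13 CJL, ZT1 CJL, ZT13 Ctrl and ZT1 Ctrl (points), with the mean and SD beside them. Krcc1 averages 7.39 FPKM at ZT13 and 2.68 FPKM at ZT1 in CJL mice, and its Ctrl mice show the opposite order.

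The calls were not equally stable. In a fit of the 6 CJL libraries alone Krcc1 was the one of the 7 still called, with limma adjusted p of 0.0985 for Per2 and Sult1a1, 0.060 for Ciart, 0.106 for Etnppl, 0.273 for Bhlhe41 and 0.075 for Nbr1. Per2 was kept under 19 of 20 alternatives, Sult1a1 under 18, Ciart under 17 and Etnppl under 16, whereas Bhlhe41 was kept under 5 (adjusted p 0.0351 to 0.286 over the 20) and Nbr1 under 4 (0.0111 to 0.226). Without the 3 libraries that stood apart, Ciart differed by 1.07 (limma adjusted p 0.239), Sult1a1 by 0.70 (0.0511) and Etnppl by 0.89 (0.166). Leaving out a single library also ended the call of Ciart (ZT1 replicate 1, adjusted p 0.0551) and of Etnppl (ZT13 replicate 2, 0.0571, or ZT1 replicate 3, 0.0606).

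The genes next in order by P were not called. Epha8, an ephrin receptor, had 2.49, 2.22 and 2.49 FPKM at ZT13, against 1.18, 1.004 and 1.16 FPKM at ZT1 (difference 1.05, limma adjusted p 0.0875). Atg16l2, a relative of the autophagy protein ATG16L1, had 12.5, 10.8 and 12.8 FPKM at ZT13, against 7.73, 8.23 and 8.36 FPKM at ZT1 (0.56, adjusted p 0.0893). Pcsk4, a proprotein convertase, differed by 0.86, and Mthfd1l, a mitochondrial enzyme of folate metabolism, by 0.57. On the lower side stood Zfp580, a zinc finger protein, with 8.09, 7.15 and 7.68 FPKM at ZT13, against 11.3, 12.7 and 11.1 FPKM at ZT1 (-0.61, adjusted p 0.185). Dhrs3, which reduces retinal, differed by -0.63, H1fx, a linker histone, by -0.60, and Cd248, a cell surface protein of pericytes and fibroblasts, by -0.60. In the annotation 17.5% of the exonic bases of H1fx overlap Gm5577 on the other strand.

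In some of the lower genes a single library lay apart. Vma21, an assembly factor of the proton pump of vesicles, had 14.8, 5.65 and 6.10 FPKM at ZT13, against 15.97, 17.6 and 15.5 FPKM at ZT1. Ppp3cb, a catalytic subunit of the phosphatase calcineurin, had 106, 61.3 and 56.4 FPKM at ZT13, against 115, 108 and 109 FPKM at ZT1. In both genes ZT13 replicate 1, the library rich in choroid plexus markers, lay near the ZT1 mice, and neither gene was called with all libraries. Leaving out each library gave -1.46 to -0.77 for Vma21 and -0.91 to -0.46 for Ppp3cb. The values largest in size came without ZT13 replicate 1, a removal picked by these levels, so no p-value is given for it. Nts, the neuropeptide neurotensin, had 0.528, 0.457 and 0.418 FPKM at ZT13, against 1.38, 4.11 and 1.06 FPKM at ZT1, with the highest level in ZT1 replicate 2, the library rich in olfactory bulb markers. The difference of Nts was -1.77 in all 6 libraries and -1.21 without that one. Dlx1as, an antisense RNA of the interneuron factor gene Dlx1, with which it shares 20.6% of its exonic bases, differed by -0.75 and by -0.53 without that library. Pcdhb22, of the protocadherin beta multigene family, had 0.236, 0.138 and 0.119 FPKM at ZT13, against 2.24, 2.26 and 1.94 FPKM at ZT1, a difference of -3.11 (adjusted p 0.318), and reads could be split between its near copies.

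Of 21 lists of pathway genes, the clock repressors had the highest median difference. All 10 repressor genes were higher at ZT13 at a nominal P below 0.05 (background 3.89%), 9 of 10 had groups that did not overlap (background 6.48%) and 3 of 10 were called (background 0.0418%). Their median difference was 0.50, against -0.0041 over all genes. Per1, another repressor of the core loop, had 33.5, 27.99 and 31.8 FPKM at ZT13, against 18.5, 11.8 and 20.9 FPKM at ZT1, a difference of 0.90 (SE 0.16, limma adjusted p 0.185). Per3, a weaker member of the family, had 15.8, 14.2 and 16.7 FPKM at ZT13, against 10.4, 9.65 and 12.6 FPKM at ZT1 (0.51, adjusted p 0.235). Bhlhe40, the E-box repressor DEC1, had 68.5, 72.6 and 65.1 FPKM at ZT13, against 55.7, 33.2 and 44.8 FPKM at ZT1 (0.65), and ZT1 replicate 2 was its lowest library.

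The cryptochromes, partners of the PER proteins, differed less. Cry1 had 10.7, 9.92 and 10.3 FPKM at ZT13, against 7.96, 8.49 and 7.22 FPKM at ZT1 (0.38), and Cry2 had 48.2, 44.6 and 48.4 FPKM at ZT13, against 40.8, 37.01 and 41.8 FPKM at ZT1 (0.24). For both genes every ZT13 mouse lay above every ZT1 mouse. The REV-ERB receptor genes, which take part in the second loop, showed 27.8, 29.9 and 31.2 FPKM at ZT13, against 22.8, 20.03 and 25.2 FPKM at ZT1 for Nr1d2 (0.39). Nr1d1 had 48.1, 41.3 and 48.3 FPKM at ZT13, against 38.01, 28.7 and 42.2 FPKM at ZT1 (0.35), and its groups overlapped, with a difference of 0.19 without ZT1 replicate 2; 8.5% of its exonic bases overlap Thra on the other strand. ZT1 replicate 2 was the lowest of the 6 libraries for 8 of these 10 genes. Without the 3 libraries that stood apart, 1 repressor gene was called, 9 were higher at a nominal P below 0.05 and the median was 0.44.

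Of the 6 activator genes, 3 were above 0 and 3 below. Arntl, the partner of CLOCK, had 12.03, 14.1 and 11.96 FPKM at ZT13, against 16.2, 15.9 and 15.5 FPKM at ZT1, a difference of -0.32 (SE 0.081, limma adjusted p 0.431). Clock had 5.15, 5.25 and 5.71 FPKM at ZT13, against 6.46, 6.31 and 6.01 FPKM at ZT1 (-0.22), and Npas2, its paralogue of the forebrain, had 10.1, 10.98 and 10.6 FPKM at ZT13, against 12.6, 11.9 and 11.4 FPKM at ZT1 (-0.18). These 3 genes were lower at ZT13 at a nominal P below 0.05 (background 3.00%) with groups that did not overlap (background 7.27%), and none was called. Arntl2 (0.23), Rora (0.12) and Rorb (0.30), the last 2 encoding activators at ROR elements, did not reach a nominal P of 0.05.

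Among the 6 output genes 5 were above 0 and none was called. At a nominal P below 0.05, 2 were higher (background 3.89%) and 1 lower (background 3.00%). Dbp, a PAR bZIP activator and E-box target, had 56.7, 40.2 and 52.7 FPKM at ZT13, against 32.9, 25.8 and 39.6 FPKM at ZT1 (0.61, limma adjusted p 0.431), and 18.01% of its exonic bases overlap Sphk2 on the other strand. Hlf, of the same family, had 57.9, 55.3 and 58.2 FPKM at ZT13, against 46.4, 39.9 and 30.6 FPKM at ZT1 (0.57). Nfil3, the repressor that competes with DBP and HLF for D-boxes, had 4.14, 3.84 and 3.95 FPKM at ZT13, against 5.72, 5.31 and 5.66 FPKM at ZT1, a difference of -0.47 (adjusted p 0.528). Every ZT13 mouse was below every ZT1 mouse for Nfil3, and every ZT13 mouse was above every ZT1 mouse for Dbp and Hlf. Tef (0.34), Usp2 (0.20) and Wee1 (0.14) did not reach a nominal P of 0.05.

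The genes of clock protein kinases, phosphatases and ubiquitin ligases were nearly level. Of 14 tested, none was called, and 1 was higher at a nominal P below 0.05 (background 3.89%). It was Usp7, a deubiquitinase of the cryptochromes, with 48.5, 44.9 and 50.6 FPKM at ZT13, against 41.6, 40.3 and 44.3 FPKM at ZT1 (0.19). The range over the 14 genes was -0.22 (Fbxw7, a ligase subunit) to 0.19. Groups did not overlap for 1 higher (background 6.48%) and 3 lower (background 7.27%) of the 14. ZT1 replicate 2 was the highest of the 6 libraries for 7 of them. Csnk1d, a PER kinase, differed by 0.0071. Further values were 0.10 for Csnk1e, -0.068 for Csnk1a1, -0.10 for Csnk2a1, -0.089 for Csnk2b and -0.080 for Gsk3b, all kinase subunits, -0.088 for Btrc, -0.11 for Fbxw11 and 0.019 for Fbxl21, all ligase subunits, -0.066 for Nono, an RNA-binding partner of PER, and 0.0080 for the phosphatase gene Dusp26.

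**Figure D3:**
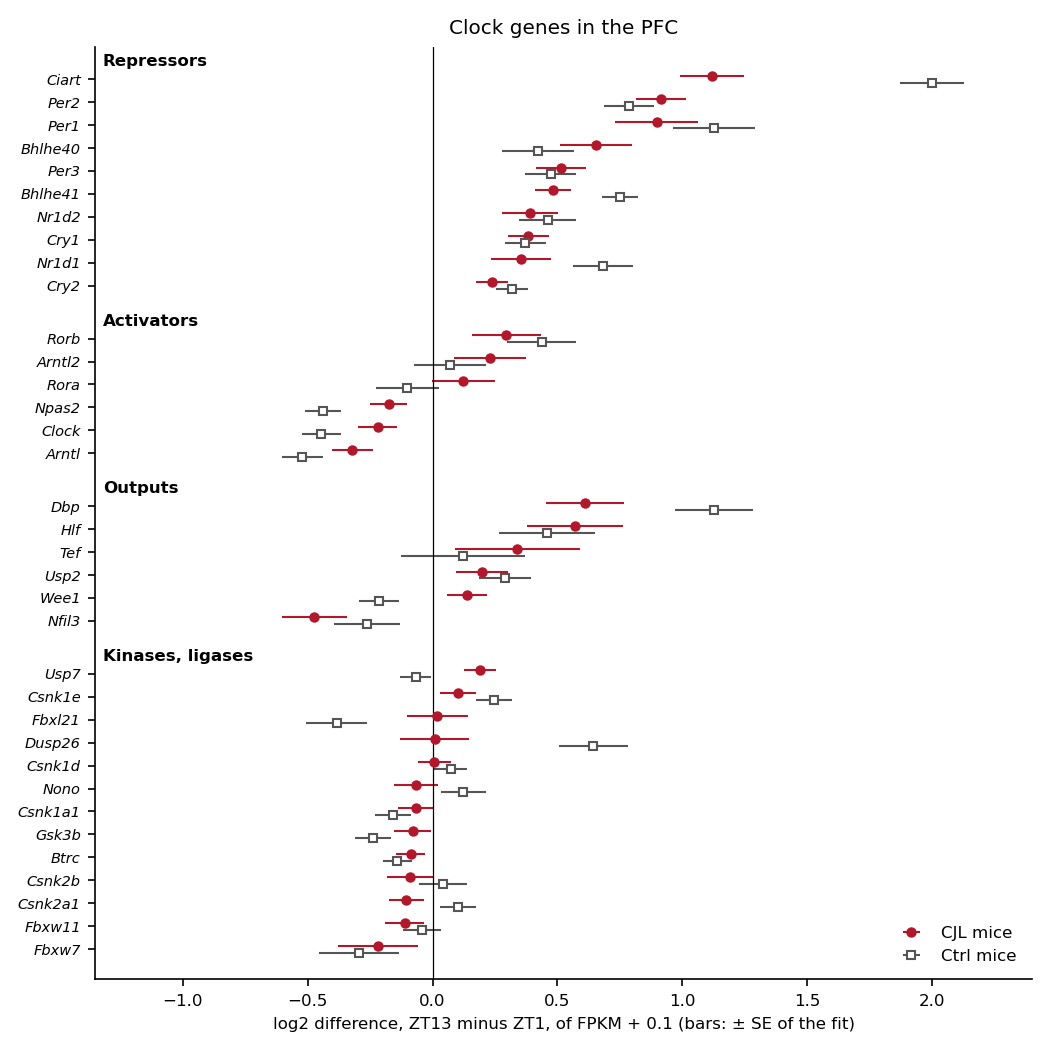
Difference ZT13 minus ZT1 in log2(FPKM + 0.1) of 35 of the 36 clock genes tested in the PFC, in CJL mice (filled circles) and in Ctrl mice (open squares), with bars of 1 SE of the fit, ordered within each role by the CJL value. In CJL mice all 10 repressors lie between 0.24 and 1.12, and Arntl, Clock and Npas2 lie below 0.

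Immediate early genes were the second group, higher at ZT13 by values but without a call. Of 36 tested, 30 were above 0 (background 48.7%), 19 were higher (background 3.89%) and 1 lower (background 3.00%) at a nominal P below 0.05, and 18 had ZT13 mice all above ZT1 mice (background 6.48%). The median was 0.38. Arc, a cytoskeletal protein of active synapses (chr15:74669083-74672570), had 155, 134 and 140.1 FPKM at ZT13, against 63.4, 26.7 and 93.01 FPKM at ZT1, a difference of 1.40 (SE 0.39, limma adjusted p 0.528). Egr2, a zinc finger factor, had 5.74, 5.45 and 5.60 FPKM at ZT13, against 3.01, 1.24 and 2.51 FPKM at ZT1 (1.36, adjusted p 0.401). Fos, of the AP-1 family, had 21.6, 21.8 and 21.2 FPKM at ZT13, against 14.98, 9.54 and 15.8 FPKM at ZT1 (0.71), and its partner gene Junb had 44.2, 44.3 and 46.1 FPKM at ZT13, against 25.8, 16.96 and 32.6 FPKM at ZT1 (0.89). In all 4 genes the ZT13 mice were close to each other and the ZT1 mice were spread, with ZT1 replicate 2 the lowest.

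Other members were mostly higher at ZT13 by values too. Nr4a1, a nuclear receptor induced by activity, had 72.5, 64.1 and 72.6 FPKM at ZT13, against 44.8, 24.7 and 56.3 FPKM at ZT1 (0.81), and Dusp1, a phosphatase of MAP kinases, had 23.5, 21.8 and 26.7 FPKM at ZT13, against 12.3, 7.91 and 20.03 FPKM at ZT1 (0.93). Egr1, the best known of the Egr factors, had 127, 136 and 116 FPKM at ZT13, against 96.3, 66.3 and 75.9 FPKM at ZT1 (0.68). Ier3, a stress-induced survival gene, had the smallest P of the list after Egr2, with 9.82, 11.9 and 9.70 FPKM at ZT13, against 7.92, 6.66 and 6.24 FPKM at ZT1 (0.59, limma adjusted p 0.427). Jun was the member lower at a nominal P below 0.05, with 11.6, 9.18 and 9.22 FPKM at ZT13, against 11.4, 15.5 and 14.1 FPKM at ZT1 (-0.44). Npas4, a factor induced by calcium entry, had 8.61, 9.16 and 10.1 FPKM at ZT13, against 5.26, 8.18 and 7.90 FPKM at ZT1 (0.40) and did not reach a nominal P of 0.05. Arc, Fos, Junb, Nr4a1, Dusp1, Egr1 and Npas4 were chosen after their values were seen.

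ZT1 replicate 2, the library rich in olfactory bulb markers, was the lowest of the 6 for 19 of the 36 immediate early genes. Without it 13 of 36 were higher at a nominal P below 0.05 and the median was 0.31, and without all 3 libraries that stood apart these values were 13 and 0.35. Its part in the rest of the difference was not tested.

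**Figure D4:**
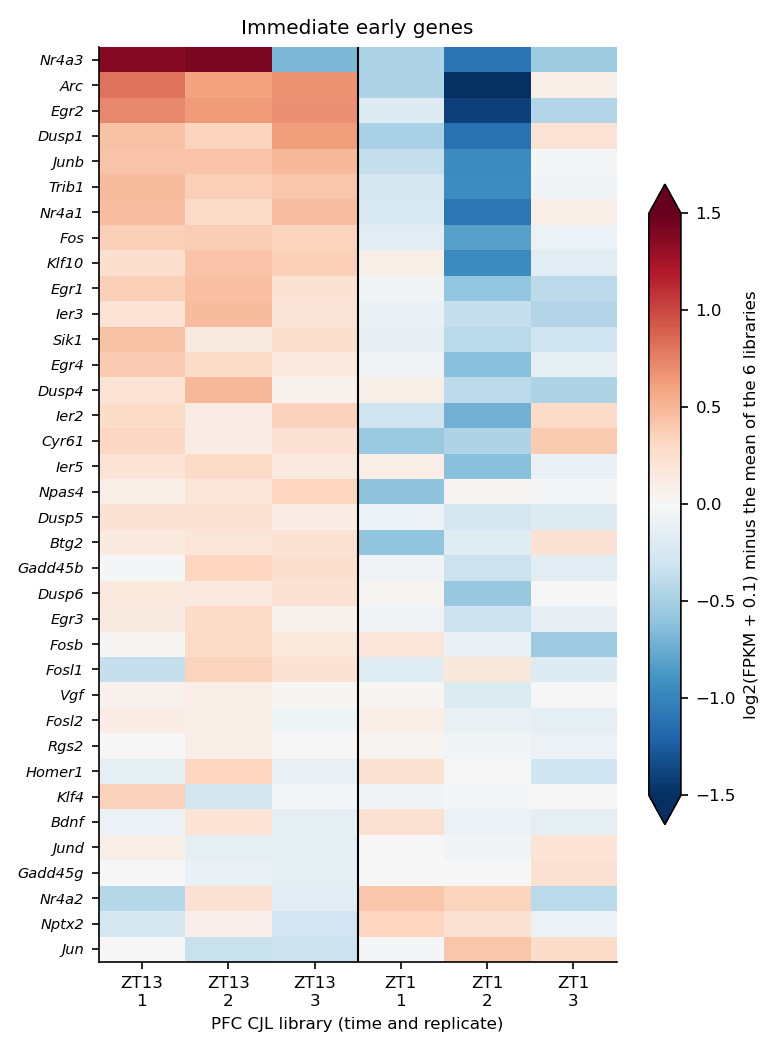
Level of the 36 immediate early genes tested in each of the 3 ZT13 and 3 ZT1 PFC libraries of CJL mice, as log2(FPKM + 0.1) minus the mean of the 6 libraries (colour, in log2 units, ordered by the difference ZT13 minus ZT1). Most genes are above their mean in the 3 ZT13 libraries, and ZT1 replicate 2 has the lowest level for 19 of 36.

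Genes induced by glucocorticoids, the adrenal hormones that peak around dark onset in nocturnal animals, showed a smaller shift. Of 22 tested, 17 were above 0 (background 48.7%), 8 were higher (background 3.89%) and 1 lower (background 3.00%) at a nominal P below 0.05. Sult1a1 was the one called (background 0.0418%). The median was 0.13. Hif3a, a member of the hypoxia-inducible factor family, had 1.68, 1.02 and 1.77 FPKM at ZT13, against 0.451, 0.671 and 0.730 FPKM at ZT1 (1.13). Tsc22d3, the leucine zipper GILZ, had 30.1, 32.2 and 29.9 FPKM at ZT13, against 25.1, 23.9 and 21.1 FPKM at ZT1 (0.40), and Mt1, a metallothionein, had 252, 244 and 223 FPKM at ZT13, against 190.0, 194 and 170.3 FPKM at ZT1 (0.38). Nr3c2, the mineralocorticoid receptor, was the member lower, with 5.45, 5.66 and 5.96 FPKM at ZT13, against 7.001, 8.57 and 7.33 FPKM at ZT1 (-0.41). The classical targets Fkbp5 (0.11) and Sgk1 (0.20) lay closer to 0. Tsc22d3, Mt1, Fkbp5 and Sgk1 were chosen after their values were seen. Without the 3 libraries that stood apart, 5 of 22 were higher at a nominal P below 0.05, none was called and the median was 0.083.

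The cold-inducible RNA-binding genes, which are induced by cooling, differed in opposite directions by values. Cirbp had 40.5, 35.8 and 35.5 FPKM at ZT13, against 43.8, 59.4 and 42.6 FPKM at ZT1 (-0.37, limma adjusted p 0.704), and ZT1 replicate 2 was its highest library, without which it differed by -0.22. Rbm3 had 69.2, 82.6 and 70.1 FPKM at ZT13, against 54.4, 64.6 and 57.6 FPKM at ZT1 (0.33, adjusted p 0.623). Of 24 heat shock genes, 6 were above 0 (background 48.7%) and none was called, with a median of -0.064. At a nominal P below 0.05, 2 were higher (background 3.89%) and 2 lower (background 3.00%). Hspa8, the constitutive HSP70 chaperone, had 454, 500.1 and 478 FPKM at ZT13, against 631, 649.8 and 564 FPKM at ZT1 (-0.36), and Stip1, a cochaperone that links HSP70 to HSP90, differed by -0.25. Dnajb1 (0.18) and Hspb8 (0.32) were the members higher at a nominal P below 0.05. Among 20 endoplasmic reticulum stress and chaperone genes none was called and the median was 0.029. Herpud1, of the degradation machinery (0.21), and Calr, the lectin chaperone calreticulin (-0.15), were the 2 at a nominal P below 0.05, beside the same backgrounds.

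Nuclear genes of oxidative phosphorylation and of the ribosome lay slightly below 0 at ZT13. Of 37 complex I genes, 33 were below 0 and 11 had ZT13 mice all below ZT1 mice (background 7.27%). At a nominal P below 0.05, 3 were lower (background 3.00%), and none was called, with a median of -0.10. Ndufab1, the acyl carrier subunit of complex I, had 26.1, 30.2 and 24.9 FPKM at ZT13, against 35.1, 38.4 and 33.03 FPKM at ZT1 (-0.39), the lowest of the list, and Ndufa13, another subunit, differed by -0.22. In the annotation 30.0% of the exonic bases of Ndufa13 overlap Tssk6 on the other strand. Of 41 genes of complexes II to V, 39 were below 0 (median -0.060), with none called and none at a nominal P below 0.05. Of 79 cytosolic ribosomal protein genes, 66 were below 0 (median -0.069) and none was called. The 2 lower at a nominal P below 0.05 (Rps24, -0.17, and Rpl35a, -0.23) were no more than the background of 3.00%. These small shifts depended in part on ZT1 replicate 2: without it 11 of 37, 14 of 41 and 29 of 79 genes were above 0, with medians of -0.051, -0.013 and -0.027.

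The 13 protein-coding genes of the mitochondrial genome were on the other side of 0 in 12 cases, with a median of 0.048. Their share of all FPKM was 12.5% to 12.8% at ZT13 and 11.9% to 12.4% at ZT1 (2-sided exact permutation test, p = 0.1, the smallest that 3 against 3 mice allow). With quantile normalization 4 of 13 were above 0.

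Genes of synapses and channels were centred near 0 and none was called. The numbers higher and lower at a nominal P below 0.05 were 0 and 4 of 31 for glutamate receptors, 2 and 3 of 50 for potassium channels, 1 and 3 of 38 for vesicle release and 3 and 1 of 30 for amine and acetylcholine receptors, beside backgrounds of 3.89% higher and 3.00% lower. The counts for potassium channels and the higher count for vesicle release were near these backgrounds, and the genes below are given as values. Of 31 glutamate receptor and auxiliary subunit genes, 24 were below 0 (median -0.081), among them Cnih3, an AMPA receptor auxiliary protein (-0.52). Of 20 postsynaptic scaffold genes, 2 were higher at a nominal P below 0.05. Dlg4, the scaffold PSD-95, had 211, 198 and 205 FPKM at ZT13, against 163, 158 and 169 FPKM at ZT1 (0.32), and all ZT13 mice were above all ZT1 mice. Synpo, synaptopodin of the spine apparatus, had 45.2, 34.2 and 41.3 FPKM at ZT13, against 27.2, 9.12 and 38.3 FPKM at ZT1 (0.91), and its difference was 0.31 without ZT1 replicate 2. Among the amine and acetylcholine receptors, Hrh3, the histamine H3 receptor, had 53.7, 30.6 and 32.9 FPKM at ZT13, against 27.1, 26.2 and 26.9 FPKM at ZT1 (0.50), and its difference was 0.25 without ZT13 replicate 1. In the annotation 11.1% of the exonic bases of Hrh3 overlap Gm17180 on the other strand. Chrm1, the muscarinic M1 receptor, differed by 0.23, and Htr1a, the serotonin 1A receptor, by -0.28. Of the potassium channel genes, Kcns2, a silent subunit, differed by -0.49, Kcnj4, an inward rectifier, by -0.23 (-0.14 without ZT1 replicate 2), Kcnn2, a calcium-activated channel, by 0.22, and Kcnc1, a channel of fast-spiking neurons, by 0.20. Of the vesicle release genes, Slc17a6, the vesicular glutamate transporter VGLUT2, differed by -0.42 (-0.20 without ZT1 replicate 2), Syt5, a synaptotagmin, by -0.19, and Vamp1, a synaptobrevin, by 0.18 (0.081 without ZT1 replicate 2). Of 25 inhibitory synapse genes, Glra2, a glycine receptor subunit, was the one lower at a nominal P below 0.05 (-0.51).

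No glycolysis or cholesterol gene was called, and of the region and cell type markers Etnppl was the one called (background 0.0418%). Of 25 glycolysis and glucose transport genes, Slc2a1, the glucose transporter GLUT1 of the blood-brain barrier, had 30.7, 28.9 and 36.05 FPKM at ZT13, against 22.9, 26.6 and 25.3 FPKM at ZT1 (0.35), while Eno2, the neuronal enolase, differed by -0.23 and Pfkp, a phosphofructokinase, by -0.22. Srebf2, the regulator of cholesterol synthesis, was the one of 25 cholesterol genes at a nominal P below 0.05 (-0.14). At this P 3.89% of all genes were higher and 3.00% lower, and the single genes of these lists are given as values. Of 14 oligodendrocyte markers 11 were above 0 (median 0.17). ZT1 replicate 2, the library rich in olfactory bulb markers, was the lowest of the 6 for 12 of these 14. Leaving out each library gave oligodendrocyte medians of 0.033 to 0.32. Of 13 markers of oligodendrocyte precursors 5 were above 0 and 8 below (median -0.078). Olig2, a transcription factor of this lineage, was the one of the precursor markers at a nominal P below 0.05, with 8.89, 8.40 and 9.50 FPKM at ZT13, against 11.3, 12.3 and 11.9 FPKM at ZT1 (-0.41, limma adjusted p 0.385). Gjb6, an astrocyte connexin (0.27), Pecam1, an endothelial adhesion protein (-0.23), and Kcnj8, a potassium channel of pericytes (-0.47), also reached a nominal P of 0.05. The mean log2 levels of all 14 lists of region and cell type markers overlapped between the times.

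**Figure D5:**
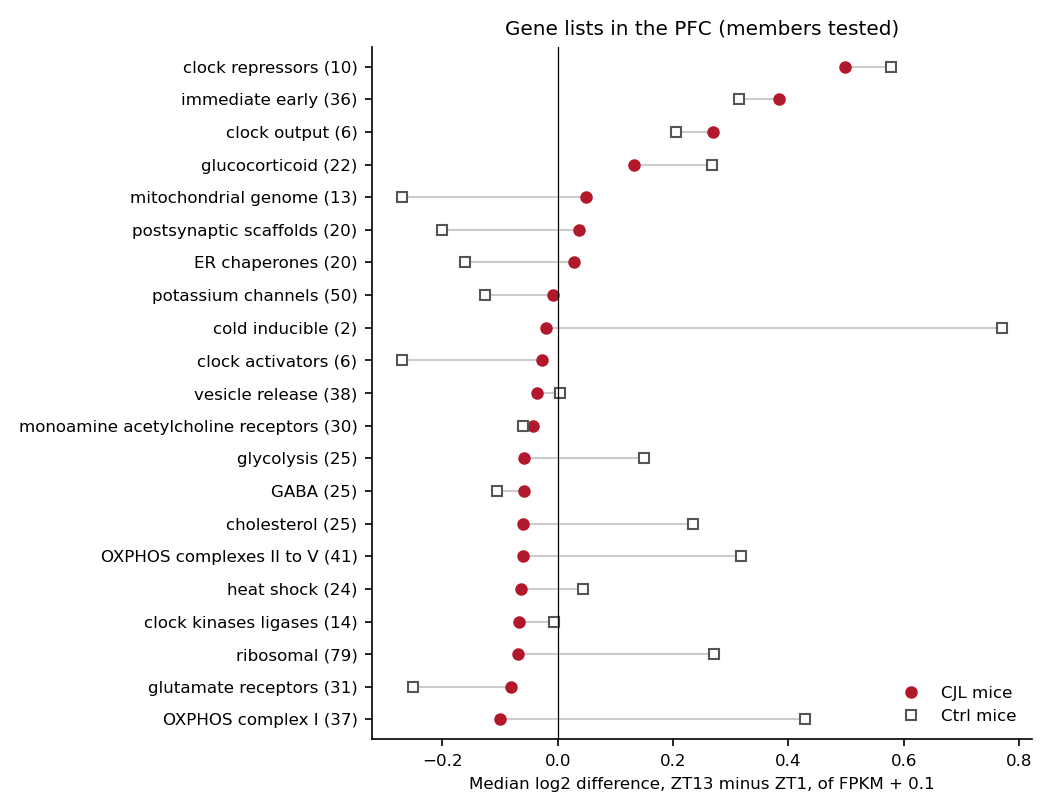
Median difference ZT13 minus ZT1 in log2(FPKM + 0.1) over the tested members of 21 gene lists in the PFC (number of members in brackets), in CJL mice (filled circles) and in Ctrl mice (open squares). In CJL mice the clock repressors (0.50) and immediate early genes (0.38) have the highest medians and complex I genes (-0.10) the lowest.

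The same time difference in the PFC of Ctrl mice showed more calls. There 1321 genes (9.21%) rose and 539 (3.76%) fell at ZT13 at an adjusted p below 0.05, and 3048 (21.3%) and 1425 (9.94%) reached a nominal P below 0.05. These Ctrl counts used FPKM as deposited, with a median Ctrl difference over all genes of 0.062. That median was 0.0065 with median-of-ratios scaling and 0.0038 with quantile normalization. The part of the scaling in the excess of rises over falls was not tested. A test of the difference between the 2 time differences (CJL minus Ctrl, interaction in the same limma fit) called 5 genes (0.0349%) higher and 10 (0.0697%) lower, with 763 (5.32%) and 1934 (13.5%) at a nominal P below 0.05. These counts depended on single libraries. Without ZT13 Ctrl replicate 1, the Ctrl library richest in choroid plexus markers, 225 genes were called higher and 586 lower. Without ZT1 Ctrl replicate 1, the Ctrl library richest in olfactory bulb markers, these were 9 and 56. Without all 3 libraries that stood apart they were 29 and 55. Of the 988 genes at a nominal P below 0.05 in CJL mice, 641 (64.9%) had the same sign in Ctrl mice, against 53.0% of all genes.

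Krcc1 and Etnppl were called in both lighting groups with opposite signs. Krcc1 differed by 1.43 in CJL mice and by -1.55 in Ctrl mice, whose values were 2.44, 2.73 and 2.69 FPKM at ZT13, against 7.64, 8.13 and 7.79 FPKM at ZT1 (interaction 2.98, SE 0.12, limma adjusted p 4.48e-07). Etnppl differed by 0.97 in CJL mice and by -0.57 in Ctrl mice, which had 4.86, 4.60 and 3.96 FPKM at ZT13, against 6.62, 7.16 and 6.29 FPKM at ZT1 (interaction 1.54, SE 0.16, adjusted p 0.0034). Egr3, an immediate early factor, differed by 0.32 in CJL mice (50.8, 56.6 and 48.1 FPKM at ZT13, against 44.6, 37.4 and 42.5 FPKM at ZT1) and by -1.44 in Ctrl mice, which had 31.7, 25.8 and 34.01 FPKM at ZT13, against 81.3, 83.3 and 83.4 FPKM at ZT1 (interaction 1.76, adjusted p 0.0003).

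No clock gene passed the interaction test with all 12 libraries. Without ZT13 Ctrl replicate 1, Ciart (-0.89, limma adjusted p 0.0341), Wee1 (0.42, 0.0470) and Dusp26 (-0.75, 0.0459) passed it. That fit called 225 genes higher and 586 lower of all 14339. Without all 3 libraries that stood apart, Ciart (limma adjusted p 0.0827), Wee1 (0.0904) and Dusp26 (0.128) did not pass. With all libraries Ciart came nearest, with a difference of 1.12 in CJL mice and 2.00 in Ctrl mice, whose values were 20.8, 24.2 and 18.6 FPKM at ZT13, against 4.83, 4.90 and 5.94 FPKM at ZT1 (interaction -0.88, SE 0.18, limma adjusted p 0.0678). Per2 differed by 0.91 in CJL mice and 0.79 in Ctrl mice, with an interaction of 0.13 (SE 0.14). The repressors had a median of 0.50 in CJL mice and 0.58 in Ctrl mice. Of the 10, 3 were called higher in CJL mice (background 0.0418%) and 9 in Ctrl mice (background 9.21%). Sult1a1 had an interaction of 0.57 (adjusted p 0.054), and its Ctrl mice had 7.02, 6.75 and 6.74 FPKM at ZT13, against 5.77, 6.03 and 6.10 FPKM at ZT1.

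The medians of complex I genes (-0.10 in CJL mice and 0.43 in Ctrl mice), of ribosomal protein genes (-0.069 and 0.27) and of the mitochondrial genome (0.048 and -0.27) lay on opposite sides of 0 in the 2 lighting groups, except that with quantile normalization the mitochondrial medians were 0 in CJL mice and 0.017 in Ctrl mice. The median over all genes was -0.0041 in CJL mice and 0.062 in Ctrl mice. Of the 37 complex I genes, 30 were lower by the interaction at a nominal P below 0.05 (background 13.5%), with a median interaction of -0.53, against -0.055 over all genes. The complex I median was -0.47 with median-of-ratios scaling and -0.41 with quantile normalization, with 27 and 26 genes lower at a nominal P below 0.05. Over all 14339 genes, 1417 and 1358 were lower at this P under the same 2 scalings. The mitochondrial share of FPKM was 13.6% to 19.2% in the ZT1 Ctrl libraries, above all other PFC groups, and its part in these differences was not tested.

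In the NAc of CJL mice Per2 was the one gene that rose (0.00697%) and none fell, with 576 (4.02%) higher and 527 (3.68%) lower at a nominal P below 0.05. The difference of Per2 was 0.91 in the PFC and 0.84 in the NAc (limma adjusted p 0.00652). A test of the difference between the 2 regions had no mouse term, since the labels do not link the libraries of a mouse. It called no gene in either direction, with 223 (1.56%) higher in the PFC and 250 (1.74%) lower at a nominal P below 0.05. The part of the uneven thalamus and hypothalamus markers of the NAc libraries in these counts was not tested. The median difference was 0.50 in the PFC and 0.32 in the NAc for the clock repressors, and 0.38 and 0.40 for the immediate early genes. Nfil3 (-0.47 in the PFC and -0.49 in the NAc), Olig2 (-0.41 and -0.47) and Hspa8 (-0.36 and -0.33) were lower at ZT13 by similar values in both regions. These genes were picked by these values. Some other lists had medians of opposite sign, such as complex I genes (-0.10 and 0.045), ribosomal protein genes (-0.069 and 0.11) and oligodendrocyte markers (0.17 and -0.26). Of the 988 genes at a nominal P below 0.05 in the PFC, 706 (71.5%) had the same sign in the NAc, against 56.3% of all genes. Krcc1 differed by 1.43 in the PFC and by -0.55 in the NAc, where the mice had 4.28, 10.3 and 3.58 FPKM at ZT13, against 10.9, 12.2 and 3.82 FPKM at ZT1.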

How the data were processed

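Poly(A) RNA libraries of PFC and NAc (24, from 3 mice per time and lighting) were sequenced as paired reads on an Illumina instrument. The authors removed adaptor and low quality reads, checked the rest with FastQC 0.11.9 and aligned it to mm10 (HISAT2). StringTie is also named in the submitters' notes. The authors deposited FPKM per gene and library, which are corrected for gene length and depth, and no read counts were used here. The FPKM steps of low genes gave the estimated depth. The 8 deposited tables of the authors' own comparisons, with linear fold changes and p-values of genes at a nominal P below 0.05 from DESeq2, were not used. The labels give no sequencing batch. Strand use in the authors' quantification is not given in the sources used here.

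Genes with at least 1 FPKM in at least 3 of the 6 PFC CJL libraries were kept, and log2(FPKM + 0.1) was modelled on the 12 PFC libraries with 1 mean per time and lighting, using moderated linear models whose variance follows the mean level (limma 3.58.1, R 4.3.3). DESeq2 was not used, since it needs counts. The interaction came from the same fit, and the comparison with NAc from a fit of all 24 libraries. P-values were adjusted by Benjamini-Hochberg over 14339 genes. Levels of whole libraries were compared with an exact permutation test. The fit was tested on simulated data. Python 3.11.15 with pandas 2.3.3, numpy 2.4.6 and matplotlib 3.10.9 made the summaries and plots. Of 48526 gene IDs, 48037 matched GENCODE M21, which gave overlaps between genes.

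The members and the 35 gene lists were chosen with earlier results of these data known. Genes were named by a rule: every gene called, the 10 with the smallest P in each direction among those with groups that did not overlap, a mean of at least 2 FPKM in the higher group, a log2 difference of at least 0.5 in size and an established name, all clock genes tested, the 2 members of each other list with the smallest P below 0.05 in each direction, and at most 6 genes in each direction from the interaction. Some genes that the rule takes are not reported here. Alternatives were quantile normalization, a pseudocount of 1, scaling by the median of ratios, all genes without a filter, a replicate block, the 6 CJL libraries alone, an olfactory bulb marker covariate, removal of the libraries over 1.5 log2 units above the PFC median for olfactory bulb or choroid plexus markers, and leaving out each library.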

Additional observations from a re-analysis of the deposited data

Results flagged for a closer look

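The genes below were taken out because their time difference in the PFC passed an adjusted p of 0.05 in the limma test of CJL mice against Ctrl mice. Each interaction is the log2 difference ZT13 minus ZT1 in CJL mice minus that in Ctrl mice, and no explanation was weighed.

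Krcc1 gave an interaction of 2.98 and Etnppl, the astrocyte enzyme, gave 1.54, both with opposite signs in the 2 lighting groups. Egr3 gave 1.76. mt-Atp6, a subunit of ATP synthase in the mitochondrial genome, gave 2.98 (limma adjusted p 5.36e-05). Its CJL mice had 769.8, 741 and 768 FPKM at ZT13, against 704, 672 and 706 FPKM at ZT1. Its Ctrl mice had 806, 874 and 835 FPKM at ZT13, against 4605, 7863 and 6119 FPKM at ZT1, and 43 of its bases are shared with mt-Atp8 on the same strand, so reads of the 2 genes could be split. These 4 genes were called under all 19 alternative settings.

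Camk1g, a calcium-dependent kinase of neurons, gave 0.56 (adjusted p 0.0475). It had 20.7, 21.7 and 20.4 FPKM at ZT13, against 15.9, 14.9 and 16.2 FPKM at ZT1 in CJL mice, and in Ctrl mice 18.97, 17.6 and 19.1 FPKM at ZT13, against 19.7, 21.4 and 20.4 FPKM at ZT1. Actr3b, of the ARP2/3 actin complex, gave -0.54 (adjusted p 0.0164), and its difference was -0.0081 in CJL mice and 0.53 in Ctrl mice. Uqcr11, a subunit of complex III, gave -0.75 (adjusted p 0.0347), with -0.16 in CJL mice and 0.59 in Ctrl mice. Lage3, of a complex that modifies transfer RNA, gave -1.10 (adjusted p 0.0317), with -0.33 in CJL mice and 0.77 in Ctrl mice. Asb11, a ubiquitin ligase adaptor, gave -1.07 (adjusted p 0.0347), with -0.036 in CJL mice and 1.03 in Ctrl mice. The unnamed loci Gm9843 (-0.82) and Gm42738 (-1.60), the last with 53.1% of its exonic bases shared with Prmt8 on the other strand, were also called. The calls of these 7 genes were lost under 7 to 14 of 19 alternatives.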

How the results depend on the processing

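Of the genes named in the PFC of CJL mice, Krcc1 was called under every alternative tried and no called gene changed sign under any of the 20. For the count of genes called higher at ZT13 (6), the fit of the 6 CJL libraries alone gave 2 (Krcc1 and a gene not among the 7 called) and the fit without the 3 libraries high in olfactory bulb or choroid plexus markers gave 2, and leaving out each replicate gave 4 to 7. For the genes called lower (1), no filter gave 2, median-of-ratios scaling 0, quantile normalization 0, the 6 CJL libraries alone 2, the olfactory bulb marker covariate 3 and the fit without the 3 libraries 7, and leaving out each replicate gave 0 to 2. At a nominal P below 0.05, the count higher (558) became 1004 with no filter and 341 without the 3 libraries (386 to 732 leaving out each replicate), and the count lower (430) became 893 with no filter (244 to 541). The cause was not tested.

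With the replicate number as a block, 5 genes were called higher and 0 lower at ZT13 (535 and 381 at a nominal P below 0.05), and the interaction called 4 higher and 0 lower. Same-numbered ZT13 and ZT1 libraries deviated from their group means with r of -0.16, -0.068 and 0.078 over 14339 genes. Differently numbered libraries gave r of -0.087 to 0.145. With 3 libraries per group these values constrain each other, so they cannot decide whether a replicate number marks anything shared.

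For the difference of CJL minus Ctrl mice, the count called higher (5) became 26 with the olfactory bulb marker covariate and 29 without the 3 libraries, and the count called lower (10) became 118 and 55 under the same 2 settings, 3 with no filter and 4 with median-of-ratios scaling. Leaving out each replicate gave 4 to 225 higher and 0 to 586 lower, with both of the highest values without ZT13 Ctrl replicate 1, which is high in choroid plexus markers. At a nominal P below 0.05 the count higher (763) became 1203 with no filter, 1179 with median-of-ratios scaling and 1231 with quantile normalization (561 to 1136 leaving out each replicate), and the count lower (1934) ran from 1432 to 2341. The share of higher among these genes was 28.3% with FPKM as deposited, 45.4% with median-of-ratios scaling and 47.5% with quantile normalization. For the PFC minus NAc difference in CJL mice, leaving out each replicate gave 0 to 2 genes called lower, 174 to 403 higher and 172 to 449 lower at a nominal P below 0.05.

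A few differences near 0 changed sign. Actr3b was 0.010 with quantile normalization, and without the 3 libraries Nono was 0.044. Leaving out each replicate gave -0.028 to 0.0049 for Actr3b, -0.080 to 0.035 for Asb11, -0.031 to 0.045 for Csnk1d, -0.039 to 0.052 for Dusp26, -0.022 to 0.068 for Fbxl21 and -0.13 to 0.055 for Nono. FPKM hold no counts, so counting error per gene is unknown and precision rests on the spread between 3 mice per group.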
